A study of Mus musculus with 6 samples.

Results

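Chemokine receptors are membrane-spanning, G protein-coupled receptors that steer lymphocytes along gradients of secreted chemokines and hold them in a tissue niche. The genes described here are Ccr2, Ccr4, Ccr6, Ccr8, Ccr9, Cxcr3, Cxcr4, Cxcr5 and Cxcr6, receptors known from lymphocytes of mucosal and barrier tissues. They were taken from the authors' comparison of genotypes by gene symbol, and all 9 were found among its 39527 genes. On group 2 innate lymphoid cells (ILC2s), which live in the lung and make type 2 cytokines, such receptors are known to govern exit from the bone marrow, entry into the tissue and position within it.

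The study sequenced RNA of ILC2s sorted from mouse lung. One group, KO, came from R5/+LKB1f/f mice, which carry the R5 allele and floxed alleles of LKB1. The other, WT, came from R5/+ mice with the same R5 allele and no floxed alleles named. R5 is the usual short name of Red5, a knock-in at Il5 that carries a red fluorescent reporter and Cre, although the labels do not spell this out. Deletion by it would start only in cells that have switched on Il5. Both groups had received IL-33, a cytokine that damaged epithelium releases and that activates ILC2s, over 4 days, so no result below describes resting cells. There were 3 KO and 3 WT samples, each a pool of 3 to 4 mice, and the labels state no ages.

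Values below come from the authors' deposited table, which gives each gene 1 mean normalized count over the libraries of the fit, 1 log2 fold change between the genotypes and its standard error (SE). Columns of single libraries in the same file match no label, so levels in KO and in WT, the spread of single samples and their depth were not analysed here. The direction of the fold change is not stated either. In the authors' deposited table Stk11, the gene of LKB1, stood at -1.34 ± 0.30 (SE) on the log2 scale, and its adjusted p was 0.000103. A positive sign below is therefore the sign opposite to that of the floxed gene, and no receptor is assigned to the KO or the WT side. In these bulk samples, fewer cells of a type and less RNA per cell cannot be told apart.

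Marker genes of ILC2s were measured in the sorted cells, all 12 of those listed having an adjusted p. Gata3, the lineage transcription factor, had a mean of 44552 normalized counts and Il1rl1, the IL-33 receptor, 16936 in the authors' deposited table. Over all genes with an adjusted p, 11.0% were positive and 13.5% negative below 0.05, shares to set beside each count of markers here. Of the 12 ILC2 markers, 2 were positive (Gata3 and Icos) and 3 negative in the authors' deposited table. The negative ones were the surface antigen Thy1, at 291.2 normalized counts and -1.98 ± 0.75 (SE), the type 2 cytokine gene Il13, at 618.6 and -1.06 ± 0.18, and the inhibitory receptor gene Klrg1, at -0.44 ± 0.12, in the authors' deposited table. Markers of other cell types were present too, with 0 of 54 at a mean of 0 and means between 3.31 (Mcpt8) and 11427 (Cd74) normalized counts in the authors' deposited table. Of these 54, 45 had an adjusted p, of which 14 were negative and 0 positive below 0.05 in the authors' deposited table (1 positive at an unadjusted p below 0.05). Among them were the B cell antigen receptor gene Ighm (-1.56 ± 0.53), the T cell receptor subunit Cd3g (-0.66 ± 0.19) and the MHC class II gene H2-Ab1 (-1.74 ± 0.22) in the authors' deposited table. The T cell list as a whole did not share the sign of Cd3g. Of its 7 tested markers 2 were negative and 3 lay above 0, among them Cd3e (0.08 ± 0.64), with a median of -0.03. Which cells the marker transcripts came from, and the part of other cell types in the receptor values, was not tested.

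The 9 receptors spanned a wide range of levels, compared here as mean normalized counts per kb of exon. Ccr8 stood highest at 25015 per kb, at rank 11 of 14922 tested genes with a known length. Cxcr6 followed at 16017 per kb (rank 26), and these 2 genes made up 93.2% of the summed level of all 9. Ccr2 had 1444, Ccr4 948, Cxcr4 389 and Ccr9 192 per kb. Ccr6 at 7.22, Cxcr3 at 6.83 and Cxcr5 at 3.90 per kb were the lowest, each with a mean below 20 normalized counts over its whole length. The table gives no spread for these levels, so whether neighbours in this order differ between samples was not tested. The exonic length used for Ccr9 was 10260 bases, because the annotation joins distant alternative exons, and its level per kb may be understated by it.

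**Figure D1:**
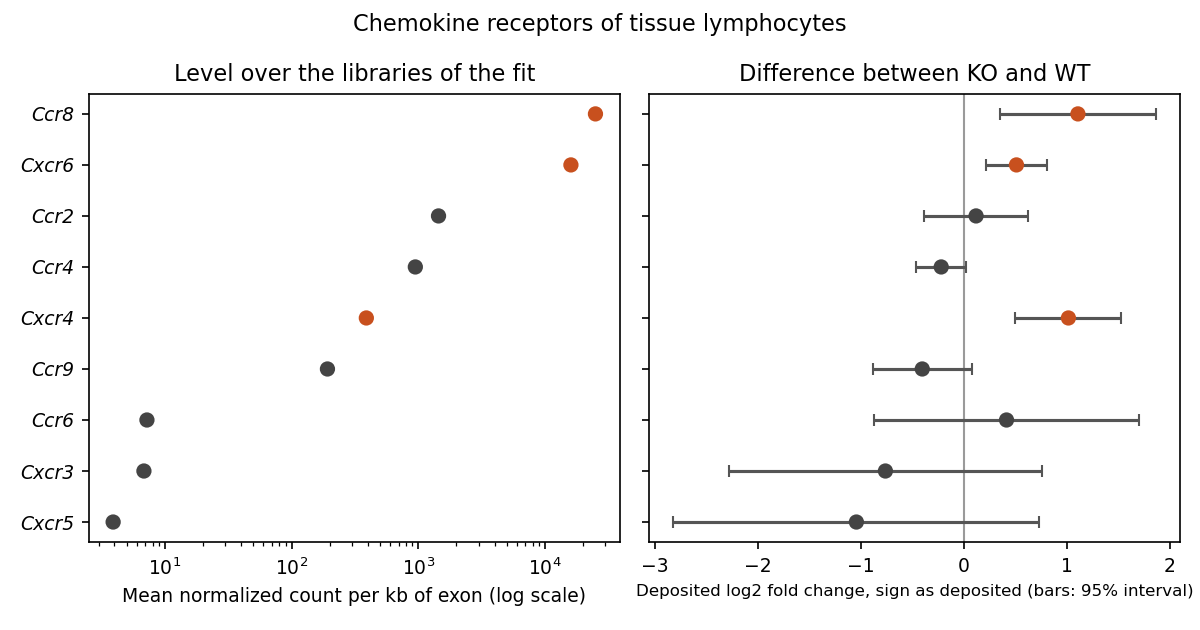
Left, mean normalized count per kb of exon (log axis) of the 9 receptors. Right, the deposited log2 fold change between KO and WT with its 95% interval, sign as deposited. Orange points passed an adjusted p of 0.05. Ccr8, Cxcr6 and Cxcr4 lie to the right of 0 with their whole intervals, and the other 6 intervals cross 0.

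At an adjusted p below 0.05, 3 of the 9 receptors were called positive and 0 negative (also 0 negative at an unadjusted p below 0.05). Over all 14961 genes with an adjusted p, 24.5% were called, 11.0% as positive and 13.5% as negative. The median log2 fold change was 0.121 over the 9 receptors and -0.0056 over all tested genes. Of the 9 values, 5 lay above 0 and 4 below, and the 95% intervals of all 4 below 0 included 0.

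The upstream 250 bases of the called receptors are shown because these genes carried the same sign while lying at separate places in the genome. They are RefSeq sequences of GRCm38.p6, written 5′ to 3′ on the strand of the gene and ending at the base before its RefSeq start. Capitals mark matches, on either strand, to TATAAA (the TATA box), GATAA (GATA factors), TGANTCA (AP-1), GGAAA (the core bound by NFAT), TGTGGT (RUNX factors) and CCGCCC (GC box).
Cxcr4, chr1:128592300-128592549, minus strand: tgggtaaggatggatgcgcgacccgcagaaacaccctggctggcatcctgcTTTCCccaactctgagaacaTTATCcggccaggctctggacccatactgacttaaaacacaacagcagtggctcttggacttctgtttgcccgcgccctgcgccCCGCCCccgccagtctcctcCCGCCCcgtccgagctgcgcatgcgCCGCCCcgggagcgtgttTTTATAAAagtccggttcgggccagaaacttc
Ccr8, chr9:120091883-120092132, plus strand: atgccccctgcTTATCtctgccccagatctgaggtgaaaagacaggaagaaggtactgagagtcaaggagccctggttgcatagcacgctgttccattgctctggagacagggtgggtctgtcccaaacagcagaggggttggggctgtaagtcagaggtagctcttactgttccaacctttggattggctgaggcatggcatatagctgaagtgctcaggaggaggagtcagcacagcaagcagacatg
Cxcr6, chr9:123806227-123806476, plus strand: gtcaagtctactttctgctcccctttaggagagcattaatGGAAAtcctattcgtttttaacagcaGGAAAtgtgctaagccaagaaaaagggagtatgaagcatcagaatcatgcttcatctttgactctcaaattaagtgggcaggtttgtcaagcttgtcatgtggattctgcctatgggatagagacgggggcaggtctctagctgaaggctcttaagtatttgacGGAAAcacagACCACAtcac

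The sequence upstream of Cxcr4 was the richest of the 3 in G and C, at 61.2%, with 19 CG pairs, against a median of 52.4% and 6 CG pairs over 32851 RefSeq promoters. It held 3 GC boxes and a TATA box that also reads on the opposite strand, the 2 matches overlapping. Ccr8 had 53.6% and 1 CG pair, and Cxcr6 43.6% and 3 CG pairs. Matches to the GATA motif were found for Cxcr4 and Ccr8, matches to the NFAT core for Cxcr4 and Cxcr6, and a RUNX match for Cxcr6, so that no motif searched occurred in all 3 sequences. Of all promoters cut to this length, 22.6% hold the GATA motif, 55.6% the NFAT core, 14.0% the RUNX motif, 32.7% the GC box, 12.4% the TATA box and 6.75% the AP-1 motif. Among the receptors not called, the GATA motif was found for Ccr2 and Ccr6, and the NFAT core for Ccr2, Ccr4 and Ccr6. The RUNX motif was found for Cxcr3 and the AP-1 motif for Ccr4, and Cxcr5 had no promoter to search. All these matches describe letters only.

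Cxcr4, the receptor for the stromal chemokine Cxcl12, retains leukocytes in bone marrow and is expressed by many of them. It lies on mm10 chromosome 1, 128588199 to 128592293 (ENSMUSG00000045382), and had a mean of 703.3 normalized counts in the authors' deposited table. Its log2 fold change in the authors' deposited table, 1.02 ± 0.26 (SE), had the smallest adjusted p of the 9, 0.0011. As a ratio in the deposited direction this is 2.02, with a 95% interval of 1.42 to 2.89. Its gene shares no 50-base stretch of transcript with another annotated gene.

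Ccr8 binds Ccl1 and, in the mouse, Ccl8, and is known from type 2 helper T cells, regulatory T cells of tissues and ILC2s. The gene lies on mm10 chromosome 9, 120092114 to 120094906 (ENSMUSG00000042262), and its mean of 29393 normalized counts in the authors' deposited table ranked 49 of 14961 by count alone. The log2 fold change was 1.11 ± 0.39 (SE) in the authors' deposited table, with an adjusted p of 0.0207. The ratio of 2.16 had a 95% interval of 1.28 to 3.64, so that a modest and a large difference are both within its error. Adjusted over all 39444 genes with a p-value, Ccr8 missed the threshold with an adjusted p of 0.0537. In the unused columns of single libraries, 1 entry of the Ccr8 row holds a letter in place of a number, and whether it touches the deposited comparison is not known. The deposited score and p-value of the row follow from its fold change and SE within 8.42e-10 and 2.15e-10.

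Cxcr6, the receptor for Cxcl16, marks lymphocytes that reside in tissues and is present on innate lymphoid progenitors. It lies on mm10 chromosome 9, 123806475 to 123811760 (ENSMUSG00000048521), with a mean of 30928 normalized counts in the authors' deposited table, rank 46 by count alone. Its log2 fold change was 0.51 ± 0.15 (SE) in the authors' deposited table, with an adjusted p of 0.00484. The ratio was 1.43, with a 95% interval of 1.16 to 1.75, a smaller but more closely measured difference than that of Ccr8. Cxcr6 lies within Fyco1, which is transcribed from the opposite strand, with 0 bases of exon in common. Fyco1, an adaptor for autophagosome transport, had a mean of 994.8 normalized counts and 0.51 ± 0.14 (SE) in the authors' deposited table, with an adjusted p of 0.00272. Reads from its introns cannot be told apart from Cxcr6 unless strand was kept, and their part in the Cxcr6 value was not tested.

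**Figure D2:**
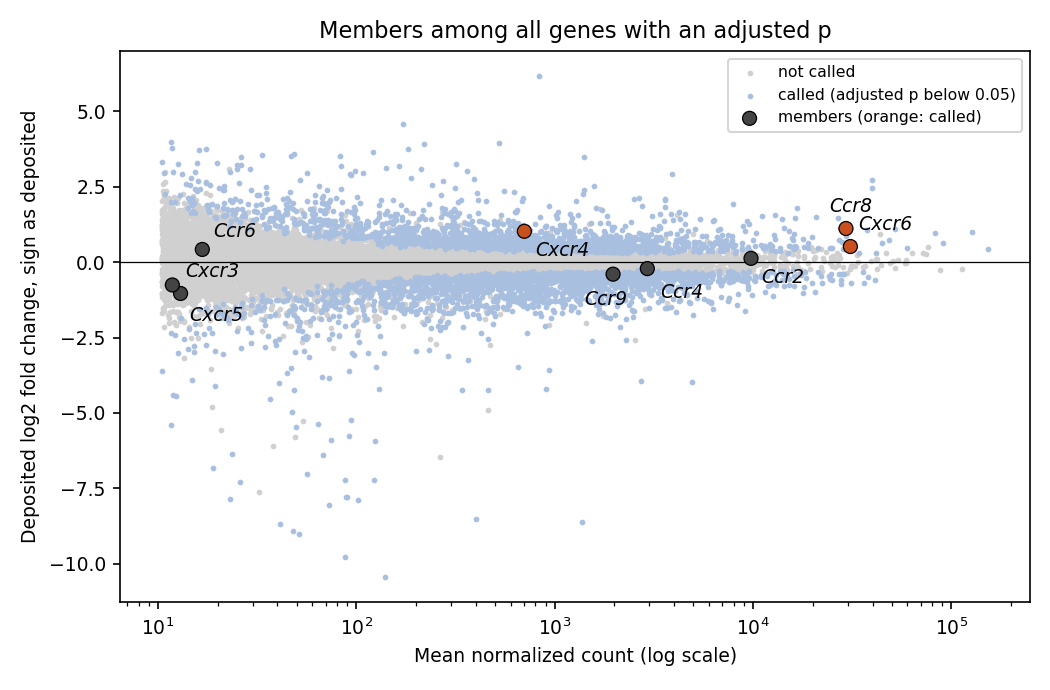
Deposited log2 fold change (sign as deposited) against mean normalized count (log axis) for the 14961 genes with an adjusted p, with the 9 receptors as large points. Ccr8 and Cxcr6 lie at the high end of the mean counts and Cxcr4 near the middle, all above 0. Ccr6, Cxcr3 and Cxcr5 lie at the low end, among genes that were mostly not called.

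Ccr2, the receptor for Ccl2 and related chemokines, is best known for recruiting monocytes and is also present on lung ILC2s. With a mean of 9763 normalized counts its log2 fold change was 0.12 ± 0.26 (SE) in the authors' deposited table, and the adjusted p was 0.786. The 95% interval of the ratio ran from 0.766 to 1.54, so that changes beyond these bounds in either direction lie outside its error.

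Ccr4, the receptor for Ccl17 and Ccl22 on type 2 helper T cells and ILC2s, had 2931 normalized counts and -0.22 ± 0.12 (SE) in the authors' deposited table. It was the most closely measured of the 9, and its 95% interval on the ratio, 0.726 to 1.02, includes no change, with an adjusted p of 0.2. Ccr9, which binds Ccl25 and directs lymphocytes to the gut, had 1969 normalized counts and -0.40 ± 0.24 (SE) in the authors' deposited table, with an adjusted p of 0.236 and an interval of 0.543 to 1.05. Both point estimates carried the sign of Stk11 and neither passed the test. Of the 50-base stretches of Ccr9 transcripts, 17.8% are shared with an antisense transcript, AC165425.1, whose mean was 0.644 normalized counts in the authors' deposited table.

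The remaining receptors are those of other lymphocyte programmes. Ccr6, the Ccl20 receptor of type 17 cells, ILC3s and B cells, had 16.7 normalized counts and 0.42 ± 0.66 (SE) in the authors' deposited table. Cxcr3, the receptor for Cxcl9 and Cxcl10 on type 1 and cytotoxic lymphocytes, had 11.8 normalized counts and -0.76 ± 0.77 (SE) in the authors' deposited table. Cxcr5, which binds Cxcl13 and leads B cells and follicular helper T cells into follicles, had 13.0 normalized counts and -1.04 ± 0.91 (SE) in the authors' deposited table. No direction could be read for these receptors, whose adjusted p values were 0.705, 0.525 and 0.442 in that order. Their 95% intervals admit changes of several-fold, such as 0.142 to 1.67 for the ratio of Cxcr5. Cxcr5 also shares 110 bases of exon with Bcl9l on the opposite strand, itself positive at 0.96 ± 0.22 (SE) in the authors' deposited table.

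The SE of a gene reflects counting error and the spread of the libraries, and was set beside that of the 500 genes nearest in rank of mean count. For Ccr8 and Cxcr6, at ranks 49 and 46, these were the 500 other genes of highest mean count, most of them less abundant than either receptor. Ccr8 had an SE of 0.385 in the authors' deposited table, against a median of 0.142 over such genes, and 98.6% of them had a smaller one. Ccr9 (98.2%), Ccr2 (97.8%) and Cxcr4 (95.6%) also exceeded nearly all genes of like abundance. Cxcr6 (59.6%) and Ccr4 (22.4%) did not. For the rare Cxcr5 (69.6%), Cxcr3 (39.8%) and Ccr6 (37.2%), the SE was that usual at their counts. Which libraries or groups hold the spread of Ccr8, Ccr2, Ccr9 and Cxcr4 was not analysed here.

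**Figure D3:**
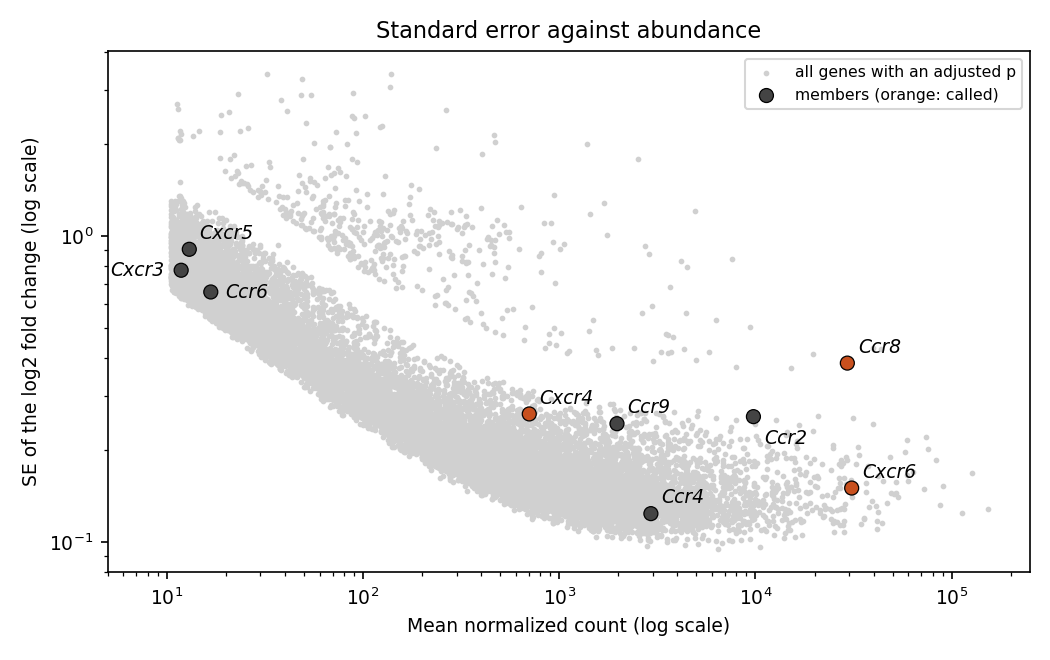
Standard error of the log2 fold change against mean normalized count (both log axes) for all genes with an adjusted p, with the 9 receptors as large points. Ccr8 lies well above the band of genes of its abundance, and Ccr4 lies low in it. Ccr6, Cxcr3 and Cxcr5 sit within the wide band at low counts.

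Of the 9 genes, 6 lie on chromosome 9. Ccr9, Cxcr6 and Ccr2 lie with Xcr1, Ccr1 and Ccr3 within 435.1 kb (mm10 chromosome 9, 123678439 to 124113557). This span begins at the first annotated base of Ccr9, whereas the RefSeq promoter of Ccr9 ends at 123767210. Distances and neighbours of Ccr9 given here use the annotated start and would differ with the RefSeq one. Of these 6 chemokine receptor genes, Cxcr6 was positive, Ccr9, Xcr1 and Ccr2 were not called, and Ccr1 and Ccr3 were negative. Ccr1, a receptor for inflammatory chemokines on myeloid cells and T cells, had -1.85 ± 0.19 (SE) in the authors' deposited table, with an adjusted p of 7.18e-19. Ccr3, the eotaxin receptor of eosinophils, had -1.45 ± 0.38 (SE) in the authors' deposited table. The 95% intervals of the log2 fold changes of Ccr2 and Ccr3, -0.384 to 0.625 and -2.19 to -0.715, did not overlap. The means of Ccr1 and Ccr3 were 414.2 and 139.1 normalized counts in the authors' deposited table.

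**Figure D4:**
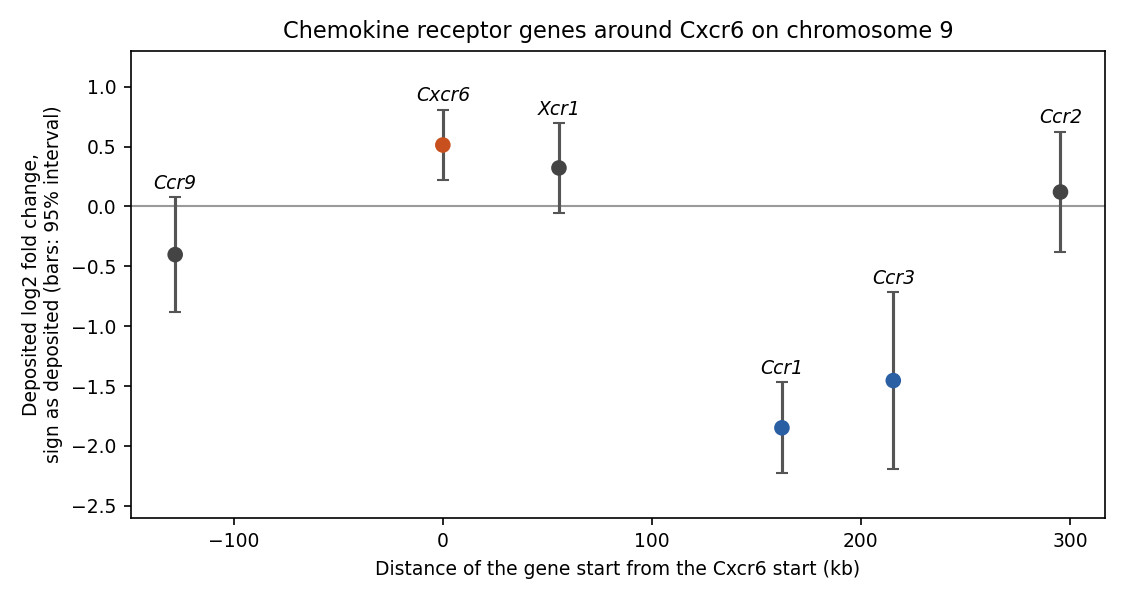
Deposited log2 fold change with its 95% interval, sign as deposited, for 6 chemokine receptor genes by the distance of their starts from that of Cxcr6 in kb. The start of Ccr9 is its first annotated base, not its RefSeq start. Orange is positive and blue negative at an adjusted p below 0.05. Cxcr6 lies above 0, Ccr1 and Ccr3 lie below -1, and Ccr9, Xcr1 and Ccr2 have intervals that include 0.

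Around all 9 receptors, 42 other tested genes start within 200 kb of a receptor's start, of which 5 were positive, 10 negative and 27 not called. Over all genes with an adjusted p, 11.0% were positive and 13.5% negative. Nearest to Ccr8 were Slc25a38 (0.31 ± 0.21), a mitochondrial glycine carrier, and the fractalkine receptor Cx3cr1 (-0.38 ± 0.55), neither of which passed in the authors' deposited table. Rpsa, a ribosomal protein gene 35.6 kb from Ccr8, was negative at -0.56 ± 0.12 (SE) in the authors' deposited table. Csrnp1, farther from Ccr8 on its other side, was positive at 0.54 ± 0.16 (SE) in the authors' deposited table. Cxcr4 had 2 tested neighbours, of which Dars, the aspartyl-tRNA synthetase, was negative at -0.47 ± 0.14 (SE) in the authors' deposited table. The called receptors thus lay beside genes that were positive, negative or not called.

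Among chemokine receptors outside the group, 7 of 9 had an adjusted p, of which 4 were negative and 0 positive (0 positive at an unadjusted p below 0.05), with a median of -1.22. For this list and those below, the shares over all genes with an adjusted p are 11.0% positive and 13.5% negative. Ccr7, which takes cells into lymph nodes, had -2.57 ± 0.21 (SE) and a mean of 2290 normalized counts in the authors' deposited table. Xcr1, the lymphotactin receptor, had the highest mean count of those that did not pass, and stood at 0.32 ± 0.19 (SE) in the authors' deposited table. Of 4 tested atypical receptors, which bind chemokines or chemerin without G protein signalling, 1 was positive and 0 negative (0 negative at an unadjusted p below 0.05). It was Ccrl2, at 0.71 ± 0.16 (SE) and 2319 normalized counts in the authors' deposited table, while the scavenger of Cxcl12, Ackr3, had -1.34 ± 0.74 and did not pass. Over all 3 lists, 20 receptors were tested, with 4 positive and 4 negative.

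Chemokines that bind the 9 receptors were called in both directions. Of 15 ligand genes, 11 had an adjusted p, 5 were negative and 1 positive, with a median of -0.909. At a threshold of 0.01, and when adjusted over all genes with a p-value, 2 were negative and 1 positive. Against a null of an absolute log2 fold change up to 0.5, none of the 11 was called in either direction. The positive ligand was Ccl1, which binds Ccr8 and is made by type 2 lymphocytes, at 2.11 ± 0.56 (SE) and 2647 normalized counts in the authors' deposited table, with an adjusted p of 0.00161. Ccl8, the other mouse ligand of Ccr8, had -6.36 ± 2.21 (SE) at 23.6 normalized counts in the authors' deposited table, a value whose size is poorly known. Cxcl16, the ligand of Cxcr6, had -1.06 ± 0.38 (SE) in the authors' deposited table, a sign opposite to that of its receptor. Cxcl12, the ligand of Cxcr4 and a product of stromal cells, had -0.79 ± 0.84 (SE) in the authors' deposited table and did not pass.

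Ligands of receptors that were not called are given beside them. Ccl17, which binds Ccr4, had -1.82 ± 0.71 (SE) in the authors' deposited table and passed at an adjusted p of 0.043, and Ccl22, its partner at that receptor, -2.13 ± 1.11 there and did not pass. Cxcl10, an interferon-induced ligand of Cxcr3, had -0.91 ± 0.16 (SE) at 1670 normalized counts in the authors' deposited table, with an adjusted p of 1.17e-06. Cxcl13, the ligand of Cxcr5, had -3.60 ± 1.02 (SE) in the authors' deposited table. Ligands such as Ccl17, Ccl22, Cxcl13 and Cxcl16 are made by dendritic cells, macrophages or stroma. Of 6 tested dendritic cell markers 4 were called negative and 5 lay below 0 in the authors' deposited table. These 4 were Cd74, H2-Ab1, Zbtb46 and Batf3, at 11427, 4959, 770.5 and 12.7 normalized counts. Itgax (0.21 ± 1.34) and Flt3 (-0.32 ± 0.71), at 38.9 and 23.8 normalized counts, did not pass. Of 7 macrophage and monocyte markers 1 was called negative and 6 lay below 0 in the authors' deposited table. The part of dendritic cells, macrophages and stroma in the ligand values was not tested.

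**Figure D5:**
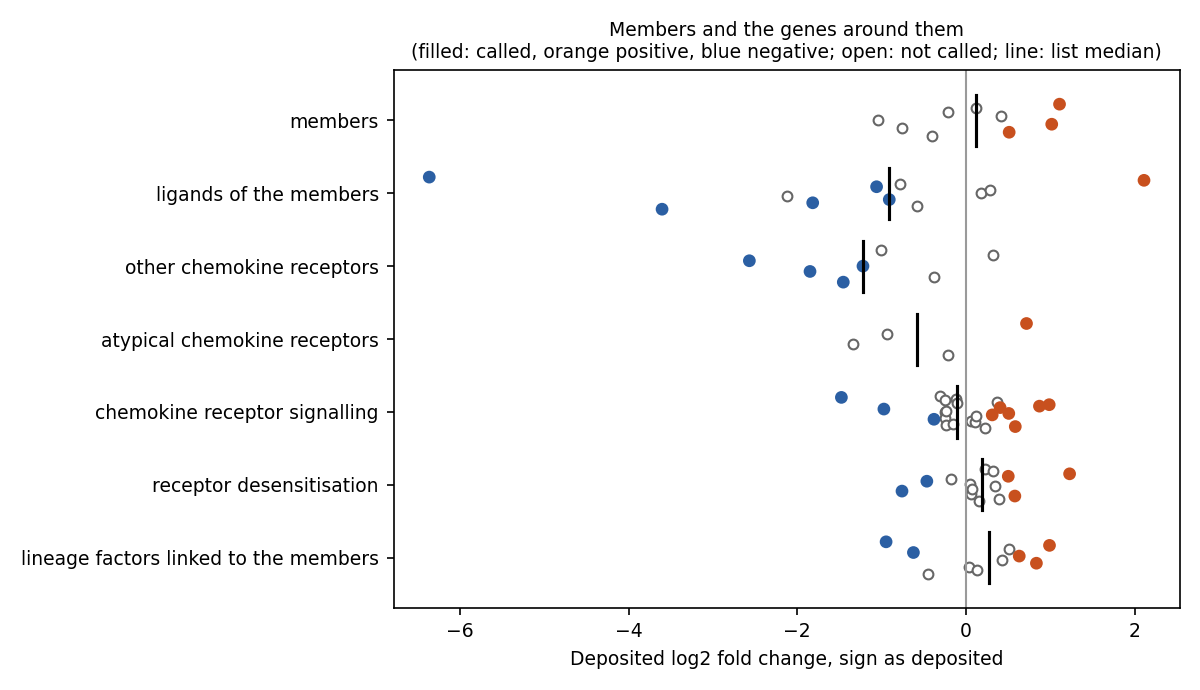
Deposited log2 fold change (sign as deposited) of every gene with an adjusted p in 7 lists: the 9 receptors, their ligands, other and atypical chemokine receptors, signalling, desensitisation and lineage factors. Filled points passed an adjusted p of 0.05, orange positive and blue negative, and black lines are list medians. The other chemokine receptors and the ligands have medians of -1.22 and -0.909, and the receptors of the group one of 0.121.

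Downstream of the receptors, Gi proteins release subunits that act on phospholipase C, phosphoinositide 3-kinase gamma and Rac. Of 23 such genes, all tested, 6 were positive and 3 negative, with a median of -0.101. Dock2, the Rac activator of migrating lymphocytes, had 0.31 ± 0.11, and Gnai2, the main Gi subunit of lymphocytes, -0.38 ± 0.12 (SE) in the authors' deposited table. Plcb2, a phospholipase C, had 0.99 ± 0.15, and the adhesion kinase Ptk2b 0.51 ± 0.12 (SE) in the authors' deposited table. Rasgrp2, which activates Rap1 and through it integrins, had -1.48 ± 0.25, and the GTPase Rac1 -0.97 ± 0.22 (SE) in the authors' deposited table. Rac2, the gene of highest mean count in the list, had -0.10 ± 0.13 (SE) in the authors' deposited table and did not pass.

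Receptor kinases, arrestins and RGS proteins end chemokine signals. Of 14 such genes, all tested, 3 were positive and 2 negative, with a median of 0.191. Arrb2, an arrestin that uncouples and internalises receptors, had 0.50 ± 0.13 (SE) in the authors' deposited table. The RGS proteins Rgs14 (0.58 ± 0.14) and Rgs18 (1.23 ± 0.42), which speed the shut-off of G proteins, were positive in the authors' deposited table. Grk2, the receptor kinase listed under its older symbol Adrbk1, had -0.76 ± 0.19, and Grk6 -0.46 ± 0.18 (SE) in the authors' deposited table. Rgs2 and Rgs1 had the highest mean counts of the list, 33330 and 24782 in the authors' deposited table, and did not pass.

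Transcription factors of the lymphocyte lineages in which these receptors are best known were also listed. Of 11, 10 had an adjusted p, 3 were positive and 2 negative, with a median of 0.278. Gata3 had 0.63 ± 0.16 and Bcl6, the follicular helper factor associated with Cxcr5, 0.99 ± 0.24 (SE) in the authors' deposited table. Klf2, a factor of quiescence and recirculation, had 0.84 ± 0.30 (SE) in the authors' deposited table. Irf4 and Batf, which act together in activated lymphocytes, had -0.95 ± 0.26 and -0.62 ± 0.14 (SE) in the authors' deposited table. Tbx21, the type 1 factor linked to Cxcr3, stood at 27.2 normalized counts with 0.04 ± 0.45 (SE) in the authors' deposited table and did not pass. Rora, the factor of highest mean count that did not pass, had 0.13 ± 0.19 (SE) in the authors' deposited table.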

How the data were processed

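RNA of lung ILC2s sorted after IL-33 challenge was sequenced in 3 KO and 3 WT samples. Per the labels, cDNA was made full length with a SMART-Seq HT kit and libraries with a TruePrep kit, and whether strand was kept is not stated. HISAT2, Cufflinks and mm10 were used, per the submitters' processing notes. The values are those of the authors' comparison. Per the file headers, it gives a mean normalized count (a signal over the libraries of the fit), a log2 fold change with SE, a p-value with its adjusted p-value, and a test score. Which libraries entered the fit, and whether they number 3 against 3, is not stated. The deposited score equalled fold change over SE, and the adjusted p a Benjamini-Hochberg adjustment over 14961 genes (mean of at least 10.5 normalized counts), to within 2.4e-07 and 7.6e-07. Calls are at an adjusted p below 0.05. A further 12 columns of per-sample values, which carry 6 distinct names, matched no label and were not used. The count test planned for such columns was therefore replaced by the authors' comparison.

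The 95% intervals are normal intervals from the SE. Positions and exonic lengths came from GENCODE M21 (GRCm38, the assembly of mm10), which held 99.1% of the gene IDs, and promoters from RefSeq (8 of the 9 receptors, all but Cxcr5). Named genes were all 9 receptors, Stk11, the called genes of each list (the 3 most abundant and 3 of largest change where over 6 were called), its most abundant gene not called, extremes of the marker lists and neighbours within 200 kb, of which those nearest are named. Further genes were named after their values were seen, and a few results under this rule are left out of the text. Receptors and lists were chosen with earlier results of these data known. Whether samples labelled as replicates came from separate litters is not given, so p-values measure the spread between libraries. Alternatives were adjustment over all genes, a threshold of 0.01, a null of up to 0.5 on the log2 scale, re-centring, and removal of length and GC trends. Python 3.11.15, pandas 2.3.3, scipy 1.17.1 and statsmodels 0.14.6 were used.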

Additional observations from a re-analysis of the deposited data

How the results depend on the processing

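Across 5 alternatives, the 9 receptors gave 45 values. Of these, 0 changed sign, 40 stayed on their side of the threshold, 5 lost the call and 0 gained one. Adjustment over all genes, the threshold of 0.01 and the null of up to 0.5 keep each fold change as deposited, so no sign could turn there. The threshold and the null can also add no call, and the 6 receptors not called had none to lose. Only re-centring and removal of the trends change the fold changes. Re-centring on the median of the most abundant 25% of genes (-0.0373 on the log2 scale), and removing the trends with length and GC content, left 3 receptors called and 30 or 28 genes called over the 6 pathway lists, against 30 as reported. Adjusting over all 39444 p-values, or a threshold of 0.01, left Cxcr4 and Cxcr6, with Ccr8 at an adjusted p of 0.0537 and 0.0207. Against a null of an absolute log2 fold change up to 0.5, 0 receptors were called, 0 of them positive, where 456 of 14961 genes were, and the pathway lists held 4 called genes; this test asks for a difference beyond 0.5. Among lists, the count of negative ligands was 2 at the stricter threshold and over all p-values, against 5. The count of negative desensitisation genes was 1 under re-centring, at the stricter threshold and over all p-values, against 2. Positive desensitisation genes numbered 4 under re-centring and 2 in the other 2 of these settings, against 3. Re-centring also raised the positive share of all calls to 50.8%, against 44.8%. No paired analysis was possible because the columns of single libraries carry no replicate number of the labels, and leaving out single samples, DESeq2 or edgeR and a low-count filter were not run for the same reason.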
